A study of Mus musculus with 16 samples.

Results

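The 37 genes of the mouse mitochondrial genome were described in 16 libraries of macrophages and lavage cells. The members are all genes whose GENCODE M21 symbol starts with mt-, 37 of the 47643 identifiers in each count file. They comprise 13 mRNAs, 2 ribosomal RNAs (rRNAs) and 22 transfer RNAs (tRNAs). All cells came from C57BL/6 wild-type mice of unstated age, and no allele or agent is labelled for any group. Cultured alveolar macrophages came as 2 lavage pools, each at a later and an earlier passage. These were passages 13 (later) and 8 (earlier) for pool 1, and 10 (later) and 5 (earlier) for pool 2. A further 3 cultures (mexAM) came from mice 1, 2 and 4, with a passage not given in the sources used here. The same mouse numbers label cells from bronchoalveolar lavage (BALF), cells from peritoneal lavage (PLF) and macrophages grown from bone marrow (BMDM), with 3 libraries each. The design sets the cultures against freshly lavaged lung cells and against macrophages of other origins.

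The mitochondrial genome encodes core subunits of respiratory complexes I, III and IV and of the ATP synthase (complex V), and the rRNAs and tRNAs needed to translate them inside the organelle. Both strands are transcribed as long precursors, from which tRNAs lying between the other genes are cut out, so that rRNAs and mRNAs are released. Most mRNAs and, with short tails, the rRNAs carry adenines at their 3′ ends, and in several mRNAs the tail completes the stop codon. All other subunits of these complexes are encoded in the nucleus. Alveolar macrophages are known for their reliance on oxidative metabolism of lipids.

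Libraries held 827791 to 2884679 counts in genes, from a 3′ tag protocol in which priming starts at runs of adenine, so a count reports the region near the priming site and not the whole transcript. The 10 alveolar macrophage markers summed to 5481 to 7143 CPM (gene counts scaled to a common library total) in later pool passages and 5811 to 5875 CPM in earlier ones. They summed to 6822 to 10472 CPM in mexAM, 9395 to 13452 CPM in BALF, 298 to 357 CPM in PLF and 295 to 476 CPM in BMDM. Gata6, the transcription factor of peritoneal macrophages, averaged 53.1 ± 8.38 CPM in PLF (SD, n = 3) and had 0 counts in every other library. PLF also held B cell markers (6 genes, 2040 to 2398 CPM summed) and mast cell markers (4 genes, 1823 to 2010 CPM). BALF held 34.8 to 633 CPM of 5 erythroid and 38.4 to 57.9 CPM of 6 lung epithelial markers, and BMDM 1787 to 4909 CPM of 5 neutrophil markers. The neutrophil markers summed to 105 to 399 CPM in mexAM, 81.5 to 172 CPM in later and 249 to 379 CPM in earlier pool passages. Few genes carried some sums. In BALF, Epcam averaged 35.3 CPM, Scgb1a1 12.3 CPM and the other epithelial markers 0.257 to 1.05 CPM. In BMDM, S100a8 and S100a9 averaged 1477 and 1404 CPM, and Retnlg, Camp and Ly6g 153, 57.4 and 3.59 CPM. The part of cells with such markers in the mitochondrial values was not tested. In these bulk libraries, fewer cells of a type and less RNA per cell cannot be told apart.

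Not every mitochondrial gene could be counted. Of the 37 genes, 11 were listed at 0 in all 16 libraries: the mRNAs mt-Atp8, mt-Atp6, mt-Co3 and mt-Nd4l, and the tRNAs mt-Tn, mt-Ty, mt-Ts1, mt-Td, mt-Tk, mt-Tg and mt-Th. mt-Co2, a core subunit of complex IV, had 2 counts in all. These mRNAs lie between mt-Co1 and mt-Nd4 in the mitochondrial genome, as does mt-Nd3, which had 278 counts. GENCODE M21 also annotates 7 pseudogenes in a block on chromosome 1 of GRCm38 (chr1:24611535-24616197, minus strand) that copy mt-Co1 to mt-Nd4. Over the copied length, 681 bases of mt-Co2, 678 of mt-Atp6, 783 of mt-Co3 and 294 of mt-Nd4l were identical to the copy, as were the first 876 of the 1378 bases of mt-Nd4. The sequences below, from the GENCODE M21 transcripts, show bases at which a gene and its copy differ, and where an annotated copy ends. All 635 windows of 50 bases in mt-Co2, also those at its end, occurred in a nuclear gene. Its capitals therefore mark the end of the annotated copy and no known difference. Capitals mark the bases that differ in the mt-Nd3 and mt-Co1 pairs, and in mt-Co2 the bases that follow the annotated copy:

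mt-Nd3 (chrMT:9459-9503, plus strand): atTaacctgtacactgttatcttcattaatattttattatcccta

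Gm28438, its copy (chr1:24613075-24613119, minus strand): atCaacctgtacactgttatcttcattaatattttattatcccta

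mt-Co1 (chrMT:6381-6422, plus strand): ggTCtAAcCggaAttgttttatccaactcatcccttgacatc

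Gm29216, its copy (chr1:24616156-24616197, minus strand): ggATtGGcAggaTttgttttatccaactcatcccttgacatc

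mt-Co2 (chrMT:7637-7696, plus strand): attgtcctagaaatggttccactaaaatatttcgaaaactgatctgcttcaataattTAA

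Gm28661, its copy (chr1:24614885-24614941, minus strand): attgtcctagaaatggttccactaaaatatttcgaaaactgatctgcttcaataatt

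Counted from 1 at the start of each mitochondrial gene, mt-Nd3 differed from its copy at T3C alone over 345 bases. The last 492 bases of mt-Co1 differed from theirs at T1056A, C1057T, A1059G, A1060G, C1062A and A1066T, all at the start of the copy. Of all 50-base windows, 100% of those in mt-Co2, 99.9% in mt-Co3, 99.5% in mt-Atp6, 98.8% in mt-Nd4l and 98.0% in mt-Nd3 also occurred in a nuclear gene. The share was 62.2% in mt-Nd4, 51.1% in mt-Co1, 8.19% in mt-Nd2, 7.61% in mt-Nd5 and 1.04% in mt-Rnr2. The other 27 mitochondrial genes had none in an annotated nuclear transcript, and nuclear sequence outside annotated transcripts was not searched. The 7 copies together held 17 counts over all libraries. Values of the genes with copies are uncertain, since how reads that match several places were counted is not given in the sources used here. mt-Atp8 (chrMT:7766-7969) has no annotated copy transcript of its own and was also listed at 0. Its end overlaps the start of mt-Atp6 (chrMT:7927-8607), which is copied. Like the tRNAs mt-Ts1, mt-Td, mt-Tk and mt-Tg, also at 0, it lies between genes copied in that block. Whether the block holds copies of these genes too was not tested. A count of 0 for these genes therefore says nothing about their expression.

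**Figure D1:**
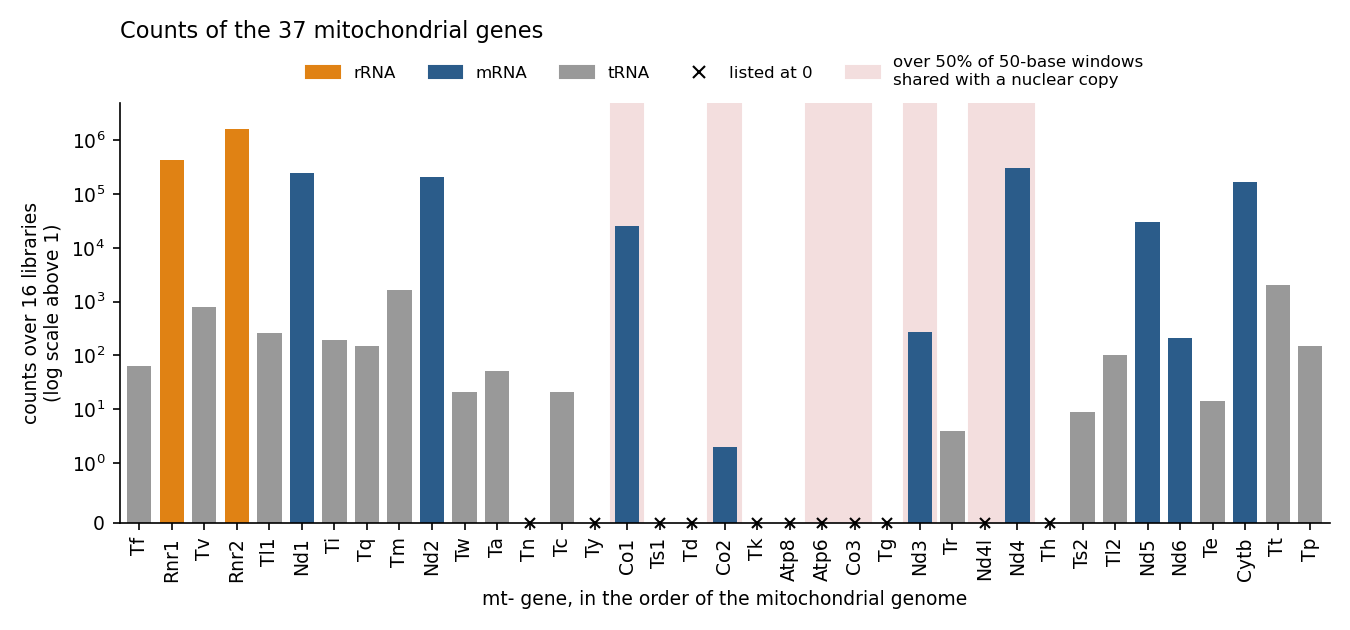
Counts of each of the 37 mitochondrial genes summed over 16 libraries, on an axis that is logarithmic above 1, with genes in their order along the mitochondrial genome. The 4 mRNAs listed at 0 (crosses) and mt-Co2 lie in the stretch that is shaded where over 50% of the 50-base windows are shared with a nuclear copy, except mt-Atp8, which has no annotated copy.

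The 5 mRNAs with the most counts were mt-Nd4, mt-Nd1, mt-Nd2 and mt-Nd5, core subunits of complex I, and mt-Cytb, the mitochondrial subunit of complex III. Reads of this protocol come from near the 3′ end, and in mt-Nd4 the last 502 bases lay outside the copied part. The last 30 bases of each are shown because they carry the encoded part of the stop codon, in capitals. In mt-Nd4 and mt-Cytb this is a single T, which polyadenylation is known to complete:

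mt-Nd4 (chrMT:11515-11544, plus strand): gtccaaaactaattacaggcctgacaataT

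mt-Nd1 (chrMT:3678-3707, plus strand): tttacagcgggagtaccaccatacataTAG

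mt-Nd2 (chrMT:4922-4951, plus strand): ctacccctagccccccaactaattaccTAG

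mt-Cytb (chrMT:15259-15288, plus strand): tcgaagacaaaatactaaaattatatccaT

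mt-Nd5 (chrMT:13536-13565, plus strand): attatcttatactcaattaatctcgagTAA

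The rRNAs held most of the mitochondrial counts. Over all libraries, the 2 rRNAs had 67.7% of 3061963 mitochondrial counts, the 13 mRNAs 32.1% and the 22 tRNAs 0.180%. mt-Rnr2, the large-subunit rRNA, had 53.4% and mt-Rnr1, the small-subunit rRNA, 14.3%. The mean level over all libraries, not divided by gene length, was 65212.4 CPM for mt-Rnr2 and 16986.5 CPM for mt-Rnr1. It was 12130.7 CPM for mt-Nd4, 9596.6 CPM for mt-Nd1, 8103.6 CPM for mt-Nd2 and 6594.0 CPM for mt-Cytb. mt-Nd5 and mt-Co1 were lower, at 1194.6 and 982.2 CPM, and mt-Nd6 was at 8.05 CPM. The last 492 bases of mt-Co1, near its 3′ end, lie in the copied part with 6 differences, so its level is uncertain. In 3′ tag data, such levels also depend on how well each transcript is primed. The longest run of adenine within mt-Rnr2 had 7 bases and that within mt-Rnr1 had 5 bases. Such runs were not particular to the rRNAs, with 8 bases in mt-Nd2, 7 in mt-Nd4, mt-Nd5 and mt-Co1 and 6 in mt-Nd1. Whether they bear on the levels was not tested. The runs of the 2 rRNAs are in capitals here within 60 bases of each gene, as places where priming could start inside the transcript:

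mt-Rnr2 (chrMT:1461-1520, plus strand): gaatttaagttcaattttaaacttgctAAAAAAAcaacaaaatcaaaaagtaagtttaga

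mt-Rnr1 (chrMT:678-737, plus strand): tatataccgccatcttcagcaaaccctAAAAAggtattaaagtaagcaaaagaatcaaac

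mt-Nd6 is the only mRNA encoded on the minus strand. It had 213 counts over all libraries, against 982807 counts in the 12 mRNAs of the plus strand. A count here needs priming at adenines, and the part of priming in this difference was not tested. The 14 tRNAs of the plus strand had 5132 counts and the 8 of the minus strand 382 counts.

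Mitochondrial transcripts made up between 8.94% and 16.4% of all gene counts. The share was 15.1% at passage 13 of pool 1 and 13.7% at passage 10 of pool 2, the later passages, and 16.4% at passage 8 of pool 1 and 12.4% at passage 5 of pool 2, the earlier ones. It was 11.6%, 11.1% and 9.35% in mexAM of mice 1, 2 and 4, and 12.1%, 16.3% and 14.2% in BALF of the same mice. In PLF it was 10.9%, 9.94% and 10.7%, and in BMDM 10.4%, 10.4% and 8.94%. All 3 BALF libraries lay above every mexAM, PLF and BMDM library, and those 3 groups overlapped. The 4 groups of 3 mice differed in an exact permutation test of the F statistic (one-sided, p = 0.0105, adjusted p = 0.0271 by Benjamini-Hochberg over 4 measures). With 3 against 3 libraries the smallest exact two-sided p is 0.1, which all 3 BALF pairs reached (adjusted p = 0.218 over 24 pairs of groups and measures). Blocking by mouse, which pairs the libraries of each animal, gave p = 0.0278 in the exact permutation test and an adjusted p of 0.0556, which missed the 0.05 threshold.

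The rRNA share followed BALF. It was 9.90% and 9.61% in the later passages of pools 1 and 2 and 11.1% and 9.12% in the earlier ones. In mexAM it was 5.81%, 6.79% and 5.91%, in BALF 8.81%, 11.0% and 11.2%, in PLF 8.47%, 5.19% and 5.54%, and in BMDM 7.80%, 8.45% and 6.87%. Again all BALF libraries lay above those of the other 3 groups, and every mexAM library lay below every BMDM library. The exact permutation test gave p = 0.0136 over the 4 groups (adjusted p = 0.0271), and p = 0.0365 (adjusted p = 0.0729) with mice as a replicate block. The adjusted p also missed 0.05 when single libraries were left out: 0.0565 to 0.0930 without BALF of mice 2 or 4, BMDM of mice 1 or 2, or mexAM of mice 1 or 4. For the total share, it was 0.0539 to 0.0696 without BALF of mouse 2 or any 1 of the BMDM or PLF libraries or mexAM of mice 1 or 2.

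**Figure D2:**
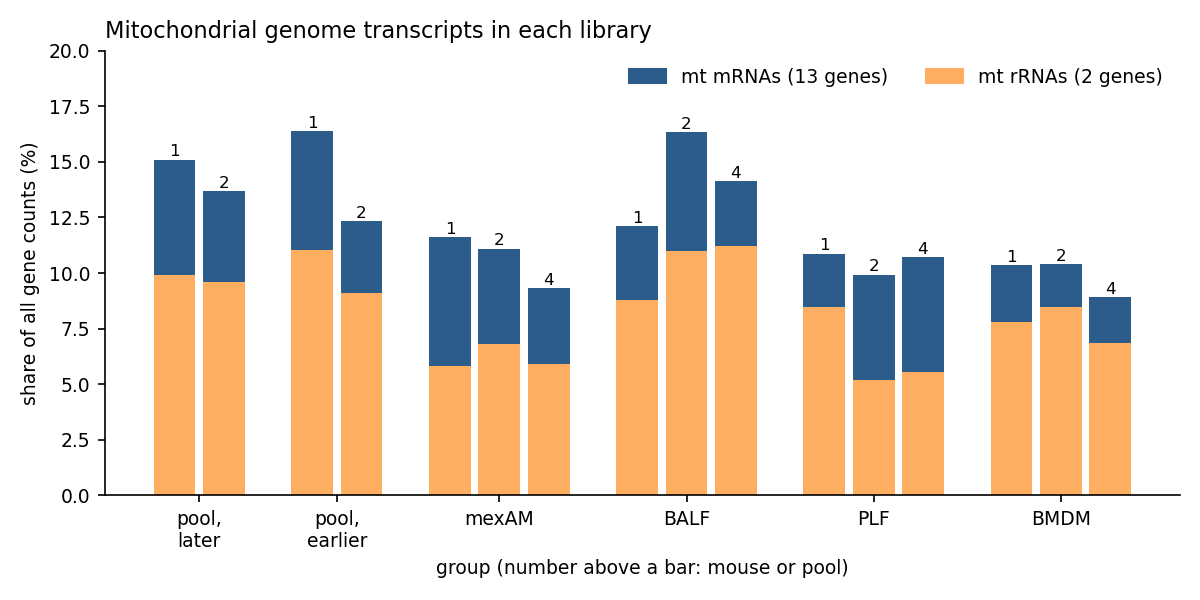
Share of all gene counts, in percent, taken by mitochondrial mRNAs (blue) and rRNAs (orange) in each of the 16 libraries; the number above a bar is the mouse or pool. BALF libraries reach 12.1% to 16.3% in total and BMDM libraries 8.94% to 10.4%, and the blue part is 1.94% to 2.56% in BMDM, a range that also holds the PLF library of mouse 1 at 2.40%.

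The mRNA share had another order. It was 5.20% and 4.08% in the later passages of pools 1 and 2, and 5.32% and 3.22% in the earlier ones. In mexAM it was 5.82%, 4.30% and 3.40%, in BALF 3.32%, 5.33% and 2.92%, in PLF 2.40%, 4.74% and 5.17%, and in BMDM 2.56%, 1.94% and 2.06%. All mexAM and all BALF libraries lay above all BMDM libraries, while the PLF library of mouse 1 lay within the BMDM range. The 4 groups did not pass the exact permutation test (p = 0.170).

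The ratio of rRNA to mRNA counts varied within groups. It was 1.90 and 2.35 in the later passages of pools 1 and 2, and 2.08 and 2.84 in the earlier ones. In mexAM it was 0.998, 1.58 and 1.74, in BALF 2.66, 2.06 and 3.84, in PLF 3.53, 1.10 and 1.07, and in BMDM 3.04, 4.35 and 3.34. Every mexAM library lay below every BALF and BMDM library, while PLF was at 3.53 in mouse 1 and near 1.1 in mice 2 and 4. The exact permutation test on the log2 ratio gave p = 0.0840 over the 4 groups (adjusted p = 0.112). Without the PLF library of mouse 1, the exact permutation p was 0.00545 and the adjusted p 0.0181.

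Gm42418, a nuclear transcript annotated over a ribosomal RNA repeat, differed between libraries of 1 group as well. It was at 46026 and 68987 CPM in the later passages of pools 1 and 2, and at 38057 and 62376 CPM in the earlier ones. It was at 51068, 54456 and 51538 CPM in mexAM, 110497, 42661 and 135778 CPM in BALF, 133467, 40800 and 38115 CPM in PLF, and 59530, 119606 and 124753 CPM in BMDM. Within BALF and within PLF the libraries had the same order by Gm42418 as by the ratio of mitochondrial rRNA to mRNA. So did the later and the earlier pool passages, with 1 library per pool in each. In mexAM and BMDM the order differed, though mouse 1 was lowest in both measures. There, Gm42418 was highest in mexAM of mouse 2 and BMDM of mouse 4, and the ratio in mexAM of mouse 4 and BMDM of mouse 2. The part of nuclear rRNA carry-over in the ratio was not tested. In the 7 libraries at or below 100000 CPM of Gm42418, the ratio was 0.998 to 1.74 in mexAM, 2.06 in BALF of mouse 2, 1.10 and 1.07 in PLF and 3.04 in BMDM of mouse 1.

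**Figure D3:**
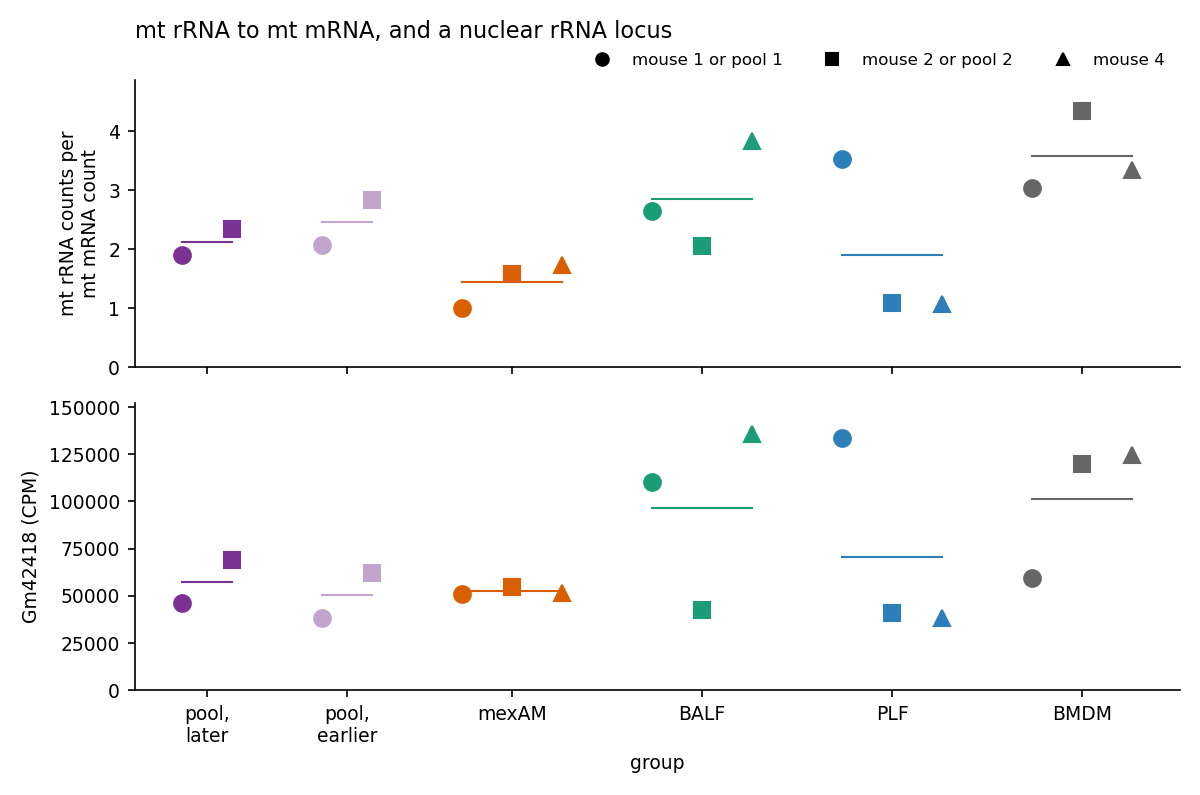
Upper panel, counts of mitochondrial rRNA per count of mitochondrial mRNA in each library; lower panel, CPM of the nuclear transcript Gm42418 in the same libraries; lines are group means and symbols mark the mouse or pool. The PLF library of mouse 1 stands apart from the other 2 PLF libraries in both panels, at a ratio of 3.53 and 133467 CPM.

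The 2 rRNAs did not keep 1 ratio to each other. mt-Rnr2 had 7.46% and 7.26% of gene counts in the later passages of pools 1 and 2, and 8.70% and 7.36% in the earlier ones. It had 4.06%, 5.22% and 4.41% in mexAM, 7.18%, 8.60% and 9.28% in BALF, 7.32%, 4.36% and 4.47% in PLF, and 6.11%, 6.87% and 5.68% in BMDM. mexAM lay below BALF and BMDM in all libraries. mt-Rnr1 had 2.44% and 2.34% in the later pool passages and 2.34% and 1.76% in the earlier ones. It had 1.75%, 1.57% and 1.50% in mexAM, 1.63%, 2.39% and 1.93% in BALF, 1.16%, 0.837% and 1.06% in PLF, and 1.69%, 1.58% and 1.19% in BMDM. Here PLF lay below all libraries of the other groups. Counts of mt-Rnr2 per count of mt-Rnr1 averaged 3.08 ± 0.0332 in later and 3.95 ± 0.332 in earlier pool passages (SD, n = 2 each). They averaged 2.86 ± 0.507 in mexAM, 4.28 ± 0.614 in BALF, 5.24 ± 1.06 in PLF and 4.24 ± 0.582 in BMDM (SD, n = 3 each).

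The 5 abundant mRNAs had their lowest group means in BMDM. mt-Nd1 had 1.31% and 1.09% of gene counts in the later passages of pools 1 and 2, and 1.15% and 0.846% in the earlier ones. It had 1.16%, 1.06% and 0.934% in mexAM, 0.909%, 1.21% and 0.827% in BALF, 0.682%, 1.17% and 1.27% in PLF, and 0.654%, 0.503% and 0.585% in BMDM. All BMDM libraries lay below all others. How many of all genes separate groups in this way was not counted, here and for the other mRNAs and the rRNAs. mt-Nd4 had 1.56% and 1.09% in the later pool passages and 1.90% and 1.02% in the earlier ones. It had 2.28%, 1.35% and 0.920% in mexAM, 0.871%, 1.79% and 0.742% in BALF, 0.614%, 1.66% and 1.80% in PLF, and 0.777%, 0.545% and 0.499% in BMDM. Here the BMDM range was overlapped by 1 BALF and 1 PLF library. mt-Nd2 had 1.11% and 0.973% in the later pool passages and 1.25% and 0.647% in the earlier ones. It had 1.55%, 0.835% and 0.783% in mexAM, 0.678%, 0.973% and 0.580% in BALF, 0.520%, 0.849% and 0.931% in PLF, and 0.447%, 0.394% and 0.439% in BMDM. BMDM was again below all other libraries.

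mt-Cytb had 0.917% and 0.666% of gene counts in the later passages of pools 1 and 2, and 0.768% and 0.531% in the earlier ones. It had 0.624%, 0.822% and 0.594% in mexAM, 0.672%, 1.09% and 0.597% in BALF, 0.407%, 0.799% and 0.864% in PLF, and 0.479%, 0.337% and 0.380% in BMDM. The PLF library of mouse 1 fell within the BMDM range. mt-Nd5 had 0.176% and 0.147% in the later pool passages and 0.150% and 0.0989% in the earlier ones. It had 0.115%, 0.118% and 0.0886% in mexAM, 0.103%, 0.153% and 0.0862% in BALF, 0.0972%, 0.160% and 0.180% in PLF, and 0.0924%, 0.0706% and 0.0741% in BMDM. All PLF libraries lay above all BMDM libraries. mt-Co1, the catalytic subunit of complex IV, had 0.132% and 0.116% in the later pool passages and 0.0958% and 0.0750% in the earlier ones. It had 0.0917%, 0.117% and 0.0825% in mexAM, 0.0803%, 0.119% and 0.0888% in BALF, 0.0827%, 0.0936% and 0.117% in PLF, and 0.113%, 0.0914% and 0.0762% in BMDM. For mt-Co1, whose last 492 bases are copied, these 4 groups overlapped.

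The make-up of the mRNA counts was similar in most libraries for the most abundant mRNAs. mt-Nd4 took 24.3% to 39.1% of mitochondrial mRNA counts per library, mt-Nd1 19.9% to 28.5%, mt-Nd2 17.4% to 26.7% and mt-Cytb 10.7% to 20.5%. mt-Co1 took 4.27 ± 0.513% in BMDM (SD, n = 3), against group means of 2.07% to 2.69% in the other groups. The mexAM library of mouse 1 held the highest shares of mt-Nd4 and mt-Nd2 and the lowest of mt-Nd1 and mt-Cytb among the 16 libraries. Its counts of mt-Nd4 per count of mt-Cytb were 3.65, against 1.64 and 1.55 in mexAM of mice 2 and 4, and 1.24 to 2.09 in the 9 BALF, PLF and BMDM libraries. Pool 1 had 1.70 at passage 13 and 2.48, the next highest value, at passage 8, and pool 2 had 1.63 at passage 10 and 1.92 at passage 5.

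The libraries with the highest of these ratios, mexAM of mouse 1 and passage 8 of pool 1, were also those with no count of mt-Nd3, a complex I subunit that was singled out after its values were seen. The other 14 libraries had 8 to 45 counts (5.49 to 23.5 CPM), and passage 13 of pool 1 had 35. A count of 0 allows up to 1.74 CPM in mexAM of mouse 1 and 2.89 CPM in passage 8 of pool 1, at a floor of 3 counts, which covers counting error only. The nuclear copy Gm28438 had 3 counts in mexAM of mouse 1 and 0 in passage 8 of pool 1. Reads starting after the third base of mt-Nd3 hold no base by which the gene and this copy differ within the copied length.

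Of the 37 mitochondrial genes, 16 passed the filter on low counts in the fit of the 12 libraries of mexAM, BALF, PLF and BMDM: the 2 rRNAs, 8 mRNAs and 6 tRNAs. Fold changes below are on the log2 scale, relative to TMM-normalised library sizes, with their standard error (SE) and p adjusted by Benjamini-Hochberg over all 10011 genes tested with the quasi-likelihood method of edgeR. Between mexAM and BALF, mt-Tm and mt-Tt rose in mexAM and mt-Rnr2 fell, 3 of 16 genes, beside 30.0% of all genes called in that comparison. None of the 8 mRNAs passed, and their median log2 fold change was -0.23, against 0.01 over all genes. mt-Rnr2 was lower in mexAM by a log2 fold change of -1.08 (SE 0.28, adjusted p = 0.00811) and stayed called whichever single library was left out. mt-Tm was called in 2 and mt-Tt in 3 of the 6 fits that left out 1 library of either group. mt-Tm was lost without BALF or mexAM of mice 2 or 4, with log2 fold changes of 0.78 to 1.14 over these 6 fits. mt-Tt was lost without BALF of mice 2 or 4 or mexAM of mouse 2, with 0.87 to 1.58.

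Against PLF, 5 of 16 genes rose in mexAM and none fell, beside 57.9% of all genes called. These were mt-Rnr1, at a log2 fold change of 0.69 (SE 0.24, adjusted p = 0.0209), and the tRNAs mt-Tv, mt-Tm, mt-Tp and mt-Tl1. The 8 mRNAs had a median of 0.05 (-0.0047 with scaling by library totals alone), and none passed. Without the PLF library of mouse 1, 7 genes were called higher and mt-Nd5 lower in mexAM, at -0.58 (adjusted p = 0.0469 in edgeR). The same counts and a mt-Nd5 value of -0.59 (adjusted p = 0.0489) came from edgeR without the 5 libraries above 100000 CPM of Gm42418, with a median of the mRNAs of -0.13 and 51.7% of all genes called. mt-Rnr1 was not called without mexAM of mouse 1 or PLF of mouse 2, and mt-Tl1 not without PLF of mice 2 or 4. Over these fits mt-Rnr1 ranged from 0.54 to 0.84 and mt-Tl1 from 0.98 to 1.75.

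Against BMDM, 8 of 16 genes rose in mexAM and none fell, beside 44.6% of all genes called. Of the 8 mRNAs, mt-Nd2, mt-Nd4, mt-Nd1 and mt-Cytb rose, with log2 fold changes of 1.39 (SE 0.29), 1.41 (SE 0.42), 0.94 (SE 0.25) and 0.86 (SE 0.29) and adjusted p of 0.000891, 0.0126, 0.00494 and 0.0214 in edgeR. The 4 tRNAs mt-Tp, mt-Tl1, mt-Tv and mt-Tm rose as well. Neither rRNA passed, with values of 0.20 (SE 0.24) for mt-Rnr1 and -0.36 (SE 0.28) for mt-Rnr2. mt-Nd4 was lost without mexAM of mouse 1, at 0.98, and mt-Cytb without BMDM of mice 2 or 4 or mexAM of mouse 2, with 0.68 to 0.99 over the 6 fits. Without the 3 BALF and PLF libraries and the 2 BMDM libraries above 100000 CPM of Gm42418, 5 genes were called, mt-Nd2 and the 4 tRNAs, beside 31.8% of all genes. The median of the 8 mRNAs was then 0.54, against 0.69 with all 12 libraries. That fit leaves 1 BMDM and 1 BALF library, which are assumed to vary like the mexAM and PLF libraries.

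Between BALF and PLF, 4 of 16 genes rose in BALF, beside 40.3% of all genes called: both rRNAs, mt-Tv and mt-Tp. mt-Rnr1 had a log2 fold change of 1.20 (SE 0.24, adjusted p = 0.000779) and mt-Rnr2 of 0.87 (SE 0.28, adjusted p = 0.0197) in edgeR. None of the 8 mRNAs passed, with a median of 0.21 (-0.04 with scaling by library totals alone). mt-Rnr2 was lost without BALF of mouse 4 or PLF of mice 2 or 4 (0.70 to 1.21 over the 6 fits), and mt-Tp without BALF of mice 1 or 2 or PLF of mice 1 or 4 (1.46 to 1.91). Scaling by library totals alone gave 2 genes higher and 1, mt-Tt, lower. It moved the median of all genes to -0.27 here, -0.32 for BALF against BMDM, 0.22 for mexAM against BALF and 0.20 for pool cultures against BALF.

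Between BALF and BMDM, 8 of 16 genes rose in BALF and mt-Tt fell, beside 37.4% of all genes called. Of the mRNAs, mt-Cytb, mt-Nd4, mt-Nd2, mt-Nd1 and mt-Nd5 rose, with log2 fold changes of 1.26 (SE 0.29), 1.18 (SE 0.42), 1.08 (SE 0.29), 1.04 (SE 0.25) and 0.81 (SE 0.25). Their adjusted p in edgeR were 0.00213, 0.0372, 0.00720, 0.00295 and 0.0152. mt-Cytb, mt-Nd1, mt-Nd2 and mt-Tp stayed called in all fits without 1 library, and the other 5 did not. mt-Nd4 was lost without BALF of mouse 2 or BMDM of mice 2 or 4 (0.72 to 1.40), and mt-Nd5 without BALF or BMDM of mouse 2 (0.57 to 0.96). mt-Rnr1, at 0.70 (SE 0.24, adjusted p = 0.0308), remained called without BALF of mouse 1 and in none of the other 5 such fits (0.56 to 0.81). mt-Tv was lost without BALF of mice 2 or 4 or BMDM of mice 1 or 4 (0.78 to 1.19), and mt-Tt without any 1 BALF library or BMDM of mouse 4 (-1.25 to -0.70). Scaling by library totals alone left 5 calls, 4 higher and 1 lower in BALF. With mice as a replicate block, mt-Nd4 was not called (1.13, adjusted p = 0.0552 in edgeR) and the other 8 were. Without the libraries above 100000 CPM of Gm42418, mt-Cytb alone was called, beside 15.7% of all genes, and the median of the 8 mRNAs was 1.08, against 1.00 with all 12 libraries. This sets 1 library against 1, with the spread taken from mexAM and PLF.

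Between PLF and BMDM, 5 of 16 genes rose in PLF, all mRNAs, beside 36.5% of all genes called. mt-Nd4 had a log2 fold change of 1.19 (SE 0.42), mt-Nd5 of 0.91 (SE 0.25), mt-Nd1 of 0.87 (SE 0.25), mt-Nd2 of 0.87 (SE 0.29) and mt-Cytb of 0.82 (SE 0.29), with adjusted p of 0.0374, 0.00769, 0.0104, 0.0263 and 0.0336 in edgeR. mt-Nd5 alone stayed called in all 6 fits without 1 library. mt-Nd1 was lost without BMDM of mouse 2 or PLF of mouse 4 (0.71 to 1.08), and mt-Nd2 without BMDM of mice 1 or 2 or PLF of mice 2 or 4 (0.72 to 1.06). mt-Nd4 and mt-Cytb were lost without BMDM of mice 2 or 4 or PLF of mice 2 or 4 (0.93 to 1.52 and 0.63 to 1.07). Without the libraries above 100000 CPM of Gm42418, no mitochondrial gene was called by edgeR beside 19.9% of all genes, 6 had an unadjusted p under 0.05, and the median of the 8 mRNAs was 0.88, against 0.84 with all 12 libraries.

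**Figure D4:**
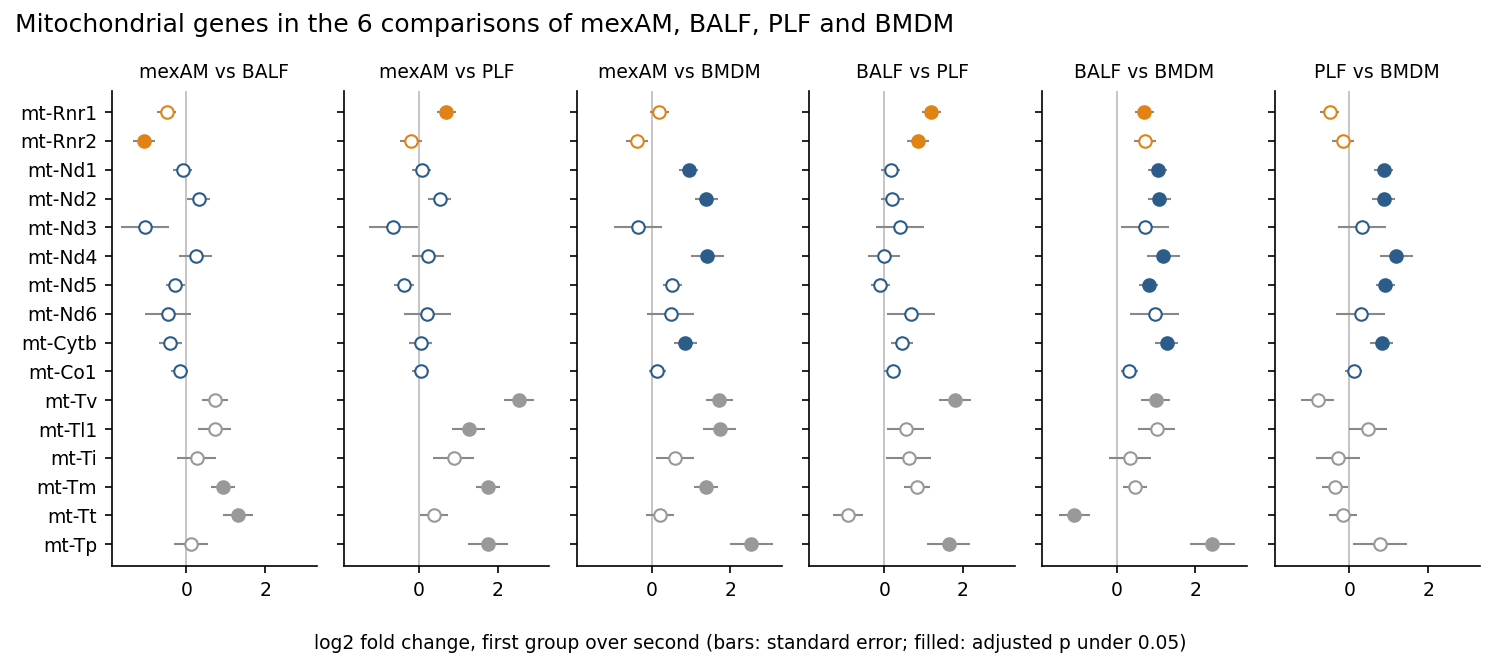
Log2 fold change of the 16 tested mitochondrial genes, first-named group over second, with standard errors, in the 6 comparisons among mexAM, BALF, PLF and BMDM; filled points passed an adjusted p of 0.05. Of the 8 mRNAs (blue), 4 pass in mexAM against BMDM and 5 each in BALF and PLF against BMDM, and none in the other 3 comparisons; mt-Nd2 is at 1.39 in mexAM, 1.08 in BALF and 0.87 in PLF, each against BMDM.

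The tRNAs were counted at low levels, 114 to 1048 counts per library over all 22. Mature tRNAs are short and carry no long tail. A count at a tRNA can also come from a precursor or a neighbouring transcript that was not cut, which these counts cannot tell apart. Of the 22 tRNAs, 2 hold a run of 6 or more adenines. These are mt-Tr, with a run of 8 and 4 counts over all libraries, and mt-Th, with a run of 6 and 0 counts. Where priming started was not tested. The 5 tRNAs with a call are shown whole, 5′ to 3′, with the first longest run of adenine, of 2 to 4 bases, in capitals:

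mt-Tv (chrMT:1025-1093, plus strand): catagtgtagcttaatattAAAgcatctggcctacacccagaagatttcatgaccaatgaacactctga

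mt-Tm (chrMT:3845-3913, plus strand): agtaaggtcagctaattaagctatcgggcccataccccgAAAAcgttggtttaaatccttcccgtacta

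mt-Tl1 (chrMT:2676-2750, plus strand): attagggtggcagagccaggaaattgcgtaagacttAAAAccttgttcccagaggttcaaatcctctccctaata

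mt-Tt (chrMT:15289-15355, plus strand): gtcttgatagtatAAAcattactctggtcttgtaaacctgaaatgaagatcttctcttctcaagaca

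mt-Tp (chrMT:15356-15422, minus strand): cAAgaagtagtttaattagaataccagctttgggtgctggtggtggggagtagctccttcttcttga

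mt-Tv, the valine tRNA, lies between mt-Rnr1 (chrMT:70-1024) and mt-Rnr2 (chrMT:1094-2675) with no base between them. It had 61.7 and 121 CPM in the later passages of pools 1 and 2, and 20.2 and 25.4 CPM in the earlier ones. It had 23.8, 21.4 and 43.7 CPM in mexAM, 11.4, 16.2 and 19.3 CPM in BALF, 4.54, 8.03 and 3.70 CPM in PLF, and 7.25, 11.7 and 9.81 CPM in BMDM. All cultured alveolar macrophage libraries lay above all BALF libraries, and mexAM above PLF and BMDM. In edgeR its log2 fold change was 2.53 (SE 0.38, adjusted p = 2.17e-05) in mexAM against PLF and 1.73 (SE 0.33, adjusted p = 0.000402) against BMDM. It was 1.80 (SE 0.41, adjusted p = 0.00206) in BALF against PLF and 0.99 (SE 0.37, adjusted p = 0.0424) against BMDM. The difference between mexAM and BALF, 0.73 (SE 0.33), did not pass (adjusted p = 0.101).

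mt-Tm, the methionine tRNA that both starts and extends mitochondrial proteins, had 59.7 and 90.8 CPM in the later passages of pools 1 and 2, and 80.0 and 140 CPM in the earlier ones. It had 62.7, 106 and 118 CPM in mexAM, 51.7, 36.5 and 40.9 CPM in BALF, 40.2, 22.3 and 23.4 CPM in PLF, and 27.1, 51.4 and 38.0 CPM in BMDM. Every cultured alveolar macrophage library lay above every library of the other 3 kinds. How many of all genes separate groups in this way was not counted, here and for the other tRNAs. In mexAM the log2 fold change was 1.76 (SE 0.31, adjusted p = 0.000131) against PLF, 1.39 (SE 0.30, adjusted p = 0.00109) against BMDM and 0.93 (SE 0.30, adjusted p = 0.0274) against BALF in edgeR.

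mt-Tt, the threonine tRNA, was lowest in BALF. It had 74.5 and 77.7 CPM in the later pool passages, and 77.1 and 71.3 CPM in the earlier ones. It had 87.7, 148 and 61.8 CPM in mexAM, 41.5, 27.4 and 34.7 CPM in BALF, 109, 70.5 and 54.9 CPM in PLF, and 72.0, 68.6 and 130 CPM in BMDM. All BALF libraries lay below all others. The log2 fold change was 1.30 (SE 0.38, adjusted p = 0.0193) in mexAM against BALF and -1.08 (SE 0.39, adjusted p = 0.0393) in BALF against BMDM in edgeR. These calls held in 3 and 2 of the 6 fits without 1 library. BALF against PLF (-0.92, SE 0.39, adjusted p = 0.0743) and pool cultures against BALF (0.91, SE 0.40, adjusted p = 0.109) did not pass in edgeR.

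mt-Tp, the proline tRNA of the minus strand, rested on few counts. It had 11 and 35 counts in the later pool passages and 9 and 3 in the earlier ones. It had 17, 10 and 22 counts in mexAM, 12, 7 and 6 in BALF, 3, 4 and 3 in PLF, and 2, 4 and 1 in BMDM. In CPM, all mexAM and BALF libraries lay above all PLF and BMDM libraries. The log2 fold change was 2.54 (SE 0.54, adjusted p = 0.000909) in mexAM and 2.43 (SE 0.58, adjusted p = 0.00299) in BALF, each against BMDM, in edgeR. Against PLF it was 1.75 (SE 0.51, adjusted p = 0.00719) in mexAM and 1.64 (SE 0.55, adjusted p = 0.0245) in BALF.

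mt-Tl1, a leucine tRNA next to mt-Rnr2, had 10.1 and 11.4 CPM in the later pool passages and 7.71 and 10.9 CPM in the earlier ones. It had 15.1, 16.1 and 17.7 CPM in mexAM, 7.81, 5.07 and 12.3 CPM in BALF, 10.4, 3.57 and 6.16 CPM in PLF, and 2.42, 6.86 and 6.74 CPM in BMDM. The 3 mexAM libraries were the highest of all 16. The log2 fold change in mexAM was 1.73 (SE 0.42, adjusted p = 0.00292) against BMDM and 1.26 (SE 0.42, adjusted p = 0.0151) against PLF in edgeR. mt-Ti, the isoleucine tRNA, had 1 to 32 counts per library and passed in none of the 6 comparisons. mt-Tq, a glutamine tRNA of the minus strand, had 9 to 13 counts in mexAM, 7 to 12 in BALF, 0 to 2 in PLF and 5 to 7 in BMDM, and did not pass the filter over these 12 libraries. With no filter, edgeR called it higher in mexAM and in BALF, each against PLF, and lower in PLF against BMDM. mt-Tq and mt-Tl2, with 147 and 102 counts in all, were tested in the fits with pool libraries, and the remaining 14 tRNAs had 0 to 65 counts over all libraries.

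**Figure D5:**
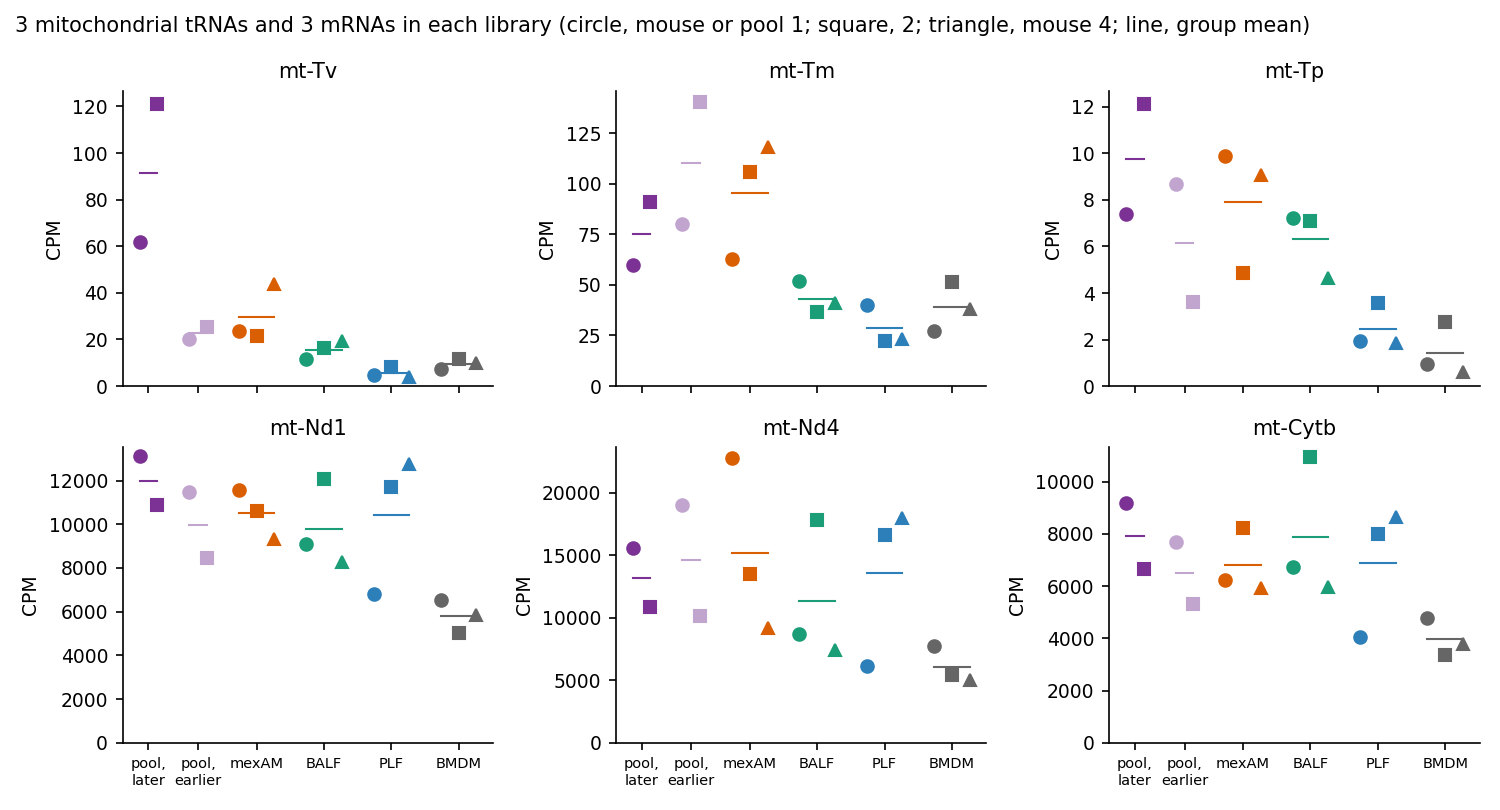
CPM of mt-Tv, mt-Tm and mt-Tp (upper row) and of mt-Nd1, mt-Nd4 and mt-Cytb (lower row) in each library, with group means as lines. mt-Tv reaches 61.7 and 121 CPM in the later pool passages and stays between 3.70 and 11.7 CPM in PLF and BMDM, while mt-Nd1 is lowest in BMDM, at 5028 to 6538 CPM.

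Pool cultures, with both passages of a pool summed, were set against mexAM and against BALF in a fit with 18 tested mitochondrial genes. Against mexAM, edgeR called none of them, beside 0.698% of all genes called, 3 had an unadjusted p under 0.05, and DESeq2 called none. These 3 were mt-Tv at 1.30 (SE 0.33, adjusted p = 0.0677), mt-Rnr2 at 0.75 (SE 0.29, adjusted p = 0.235) and mt-Rnr1 at 0.53 (SE 0.25, adjusted p = 0.353). Against BALF, mt-Tv alone rose, with a log2 fold change of 2.03 (SE 0.37, adjusted p = 0.000450), beside 26.0% of all genes called. It stayed called in the 5 fits without 1 library or pool, with 1.34 to 2.50.

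Between later and earlier passages, edgeR called no mitochondrial gene of 18, beside 0.0095% of all genes called, and DESeq2 called none. mt-Tv was the only one with an unadjusted p under 0.05, at 1.95 (SE 0.40, adjusted p = 0.195), and was higher at the later passage in both pools. It was called in the fit with no filter on low counts. It was also called without the later passage of pool 1, at 2.36 (adjusted p = 0.0449), where the 1 later-passage library left is assumed to vary like the other groups. The median log2 fold change of the 8 mRNAs was 0.26 and that of the 2 rRNAs -0.03.

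Nuclear genes of the same complexes, from lists of known subunits, gave other counts than the mitochondrial mRNAs. Between mexAM and BALF, 42 of 78 nuclear subunits of complexes I to V rose in mexAM and 1 fell (median 0.60), while none of 8 mitochondrial mRNAs passed. Against PLF, 68 rose in mexAM and none fell (median 1.19), and against BMDM 55 rose and none fell (median 0.86). Between BALF and PLF, 42 rose in BALF and none fell (median 0.60), but with scaling by library totals alone 15 rose and 2 fell (median 0.34). Between BALF and BMDM, 11 rose in BALF and none fell (median 0.25), but with scaling by library totals alone 3 rose and 7 fell (median -0.04). Between PLF and BMDM, none of the 78 rose in PLF and 17 fell (median -0.38), beside the 5 mitochondrial mRNAs that rose (median of 8, 0.84). The 78 nuclear genes gave 8 that rose and 1 that fell in pool cultures against BALF (24 and 1 with scaling by library totals alone), and none in pool cultures against mexAM or in later against earlier passages. The fit without the libraries above 100000 CPM of Gm42418 leaves 1 BALF and 1 BMDM library, so medians alone are given here. These were 0.65 in mexAM against BALF, 0.42 in BALF against PLF, 0.20 in BALF against BMDM and -0.22 in PLF against BMDM. In each comparison that fit called a smaller share of all genes than the main fit, which also bears on its counts in the lists below. The shares of all genes given above are those of the main fits. With scaling by library totals alone, 3317 of 10011 genes were called in mexAM against BALF, 4238 in BALF against PLF and 4006 in BALF against BMDM. In pool cultures against BALF that scaling called 2966 of 10602. The difference between the nuclear and mitochondrial lists was not tested.

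The single subunits named here were among the 2 largest called changes of their complex at a group mean of at least 50 CPM, and do not show the size of a list's difference. For instance, the median of the 36 nuclear complex I subunits in mexAM against BALF was 0.65. Ndufv3, a complex I subunit, averaged 245 CPM in mexAM, against 55.2 CPM in BALF, 44.3 CPM in PLF and 51.3 CPM in BMDM, with log2 fold changes of 1.98, 2.53 and 2.32. Cox5a, of complex IV, averaged 712 CPM in mexAM, 378 CPM in BALF, 202 CPM in PLF and 278 CPM in BMDM. It passed in mexAM against PLF (1.87, SE 0.19) and BMDM (1.44, SE 0.19), and in BALF against PLF (1.16, SE 0.19) and BMDM (0.73, SE 0.18). In mexAM against BALF, Cox5a was outside the 2 largest such changes, and its test there is not given. Sdha, the catalytic subunit of complex II, which has no mitochondrially encoded subunit, averaged 264 CPM in mexAM and 106 CPM in BALF (log2 fold change 1.10, SE 0.19, adjusted p = 0.000363 in edgeR). Ndufc2, of complex I, fell to 79.1 CPM in PLF, against 183 CPM in BMDM (log2 fold change -1.18, SE 0.26, adjusted p = 0.00161).

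The machinery that copies, transcribes and translates the mitochondrial genome was also read from the nuclear genes. Of 74 tested mitochondrial ribosomal proteins, 14 rose and 1 fell in mexAM against BALF, 46 rose and 2 fell against PLF, and 25 rose and 2 fell against BMDM. In BALF, 14 rose and 1 fell against PLF and 6 rose and none fell against BMDM, and in PLF 1 rose and 9 fell against BMDM. In the same order, 30.0%, 57.9%, 44.6%, 40.3%, 37.4% and 36.5% of all genes were called in the main fit. Mrpl41 averaged 54.1 CPM in mexAM, 16.5 CPM in PLF and 19.3 CPM in BMDM, with log2 fold changes of 1.78 (SE 0.26) and 1.57 (SE 0.25). In pool cultures against BALF, 10 rose and none fell. With scaling by library totals alone, 25 rose and 1 fell in mexAM against BALF, 9 rose and 3 fell in BALF against PLF, and 18 rose and none fell in pool cultures against BALF. The direction turned in BALF against BMDM, where 1 rose and 6 fell (median -0.23). Without the libraries above 100000 CPM of Gm42418, their median in BALF against BMDM was -0.06.

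Of 17 tested genes of mitochondrial DNA maintenance and transcription, 3 rose and none fell in mexAM against BALF, 1 rose and 2 fell against PLF, and 1 rose and 1 fell against BMDM. In BALF, 1 rose and 1 fell against PLF and 1 rose and 4 fell against BMDM, and in PLF 2 rose and 2 fell against BMDM. With scaling by library totals alone, none rose and 2 fell in BALF against PLF. In the 7 libraries at or below 100000 CPM of Gm42418, 1 rose and 1 fell in mexAM against BALF, and 1 rose and 2 fell in BALF against BMDM. Tfam, which packages mitochondrial DNA and starts its transcription, averaged 66.6 CPM in later and 56.2 CPM in earlier pool passages, 51.7 CPM in mexAM, 51.0 CPM in BALF, 62.3 CPM in PLF and 41.3 CPM in BMDM. Polrmt, the mitochondrial RNA polymerase, averaged 7.69 CPM in later and 3.74 CPM in earlier pool passages, 8.33 CPM in mexAM, 3.22 CPM in BALF, 4.95 CPM in PLF and 6.68 CPM in BMDM. Neither passed in any of the 9 comparisons.

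Of 35 tested genes of mitochondrial RNA processing and stability, 6 rose and 2 fell in mexAM against BALF, 9 rose and 3 fell against PLF, and 8 rose and none fell against BMDM. In BALF, 2 rose and 4 fell against PLF and 2 rose and 1 fell against BMDM, and in PLF none rose and 2 fell against BMDM. With scaling by library totals alone, 11 rose and 2 fell in mexAM against BALF, 1 rose and 4 fell in BALF against PLF, and 1 rose and 7 fell in BALF against BMDM. In the 7 libraries at or below 100000 CPM of Gm42418, none was called in mexAM against BALF, and 1 rose and none fell in BALF against PLF or BMDM. Lrpprc and Slirp, partners that stabilise mitochondrial mRNAs, averaged 79.5 and 60.8 CPM in mexAM, 31.1 and 38.6 CPM in BALF, 55.4 and 46.6 CPM in PLF, and 53.0 and 69.6 CPM in BMDM, and passed in none of the 9 comparisons. Rexo2, an exonuclease that degrades short RNA in mitochondria, averaged 218 CPM in mexAM and 254 CPM in BALF, against 76.6 CPM in PLF and 97.1 CPM in BMDM. Its log2 fold changes were 1.54 (SE 0.20) in mexAM and 1.96 (SE 0.20) in BALF, each against PLF. Grsf1, a protein of mitochondrial RNA granules, fell to 43.4 CPM in PLF, against 82.2 CPM in BMDM (log2 fold change -0.88, SE 0.20, adjusted p = 0.00213 in edgeR).

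Of 9 tested regulators of mitochondrial biogenesis, 1 rose and 3 fell in mexAM against BALF, 1 rose and 6 fell against PLF, and 2 rose and 2 fell against BMDM. In BALF, none rose and 1 fell against PLF and 2 rose and none fell against BMDM, and in PLF 3 rose and 1 fell against BMDM. Scaling by library totals alone called 1 higher and 1 lower in mexAM against BALF, 2 lower in BALF against PLF and none in BALF against BMDM. In the 7 libraries at or below 100000 CPM of Gm42418, 1 rose and 3 fell in mexAM against PLF, and none was called in BALF against PLF or BMDM. Sirt1, a deacetylase that acts on such regulators, averaged 23.1 CPM in mexAM, 59.2 CPM in PLF and 36.5 CPM in BMDM. Its log2 fold change was -1.32 (SE 0.22, adjusted p = 6.28e-05) in mexAM against PLF and 0.74 (SE 0.21, adjusted p = 0.0116) in PLF against BMDM in edgeR.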

How the data were processed

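Per library, the authors deposited 1 file of unnormalised read counts by gene. Genome build GRCm38 (mm10) is per the submitters' processing notes; the aligner, the counter with its annotation, and collapse of molecular identifiers were not given in the sources used here. Per the labels' protocols, 150 ng of RNA (RNeasy Micro) were made into QuantSeq 3′ FWD libraries (molecular identifier module, 15 cycles), sequenced as 65 bp single-end reads. The 5 lines per file that name no gene were left out; reads outside genes were 10.6% to 29.9% and ambiguous reads 0.450% to 0.625%. GENCODE M21 named 47224 of 47643 identifiers, and sequences were read from its transcripts.

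Members and lists were chosen with earlier results of these data known. Named genes were all 37 members and, per list and comparison, at most 2 called genes per direction whose higher group mean reached 50 CPM, the largest changes first; Tfam, Polrmt, Lrpprc and Slirp were named whatever their values. Counts were filtered with filterByExpr, TMM-scaled and tested with edgeR 4.0.16 (R 4.3.3; robust quasi-likelihood, adjusted p under 0.05) in fits of 12 libraries (10011 genes), 14 columns with pool passages summed (10602 genes) and 16 libraries (10527 genes). The script was tested on simulated data. DESeq2 1.42.0 was an alternative. Shares and ratios were tested by exact permutation over 369600 assignments. A mouse number was read as 1 animal in every cell type, from the labels; 18 correlations of same-mouse deviations ran from -0.118 to 0.220, with 2 over 0.1, and the replicate block is printed where it changed a call. Whether libraries are separate cultures is not stated for all, so p-values measure the spread between these libraries. Depth limits the tRNAs: 1 count was 0.347 to 1.21 CPM.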

Additional observations from a re-analysis of the deposited data

Results flagged for a closer look

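The mitochondrial share of gene counts moved in opposite directions with passage in the 2 lavage pools. It was 15.1% at the later and 16.4% at the earlier passage of pool 1, a difference of -1.26 percentage points. It was 13.7% at the later and 12.4% at the earlier passage of pool 2, a difference of 1.37 percentage points. With 1 library per pool and passage, this difference between pools was not tested.

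Counts also appeared at nuclear copies of mitochondrial sequence, which are not members. Gm13341 had 585 and Gm13340 had 275 counts over all libraries, above the 17 counts of the 7 copies on chromosome 1. The 14 such genes with a row in the files had 976 counts in all.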

How the results depend on the processing

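No called mitochondrial gene reversed its direction. With mice as a replicate block, the exact permutation p was 0.0278 for the mitochondrial share and 0.0365 for the rRNA share, both above 0.05 once adjusted (0.0556 and 0.0729). The block moved the calls between BALF and BMDM to 8, losing mt-Nd4, beside 3623 of 10011 over all genes. It lost no other mitochondrial call. Without 1 library, the exact p ran from 0.00961 to 0.0348 for the total share, 0.00143 to 0.0465 for the rRNA share and 0.00545 to 0.183 for the log2 ratio; with mt-Rnr1 alone in the numerator the ratio gave 0.0295. Mitochondrial calls without 1 library ran from 1 to 3 in mexAM against BALF, 4 to 8 against PLF and 7 to 8 against BMDM. They ran from 3 to 5 in BALF against PLF, 4 to 9 against BMDM, 1 to 6 in PLF against BMDM, and 0 to 1 in pool cultures against mexAM and in later against earlier passages. Over all genes, the fits without 1 library called 2288 to 2738 in mexAM against BALF, 5232 to 5640 against PLF and 3744 to 4419 against BMDM. They called 3391 to 4053 in BALF against PLF, 3142 to 3573 against BMDM and 3004 to 3627 in PLF against BMDM. These fits tested 10330 to 10459 genes. With no filter on low counts, 26 mitochondrial genes were tested. Of these, 8 were called in mexAM against PLF (6819 of 20133 over all genes) and 7 in BALF against PLF (4557 of 20133). In pool cultures, 1 was called against mexAM (380 of 20730) and 3 against BALF (2927), and 1 between passages (80). Library totals alone gave 5 in BALF against BMDM (4006 of 10011 over all genes) and 3 in pool cultures against BALF (2966 of 10602). Gm42418 as a covariate, an alternative chosen after seeing the data, gave 5 in mexAM against BALF (2756 of 10011 over all genes). The covariate gave 2 in PLF against BMDM (3465 of 10011). Another alternative chosen after seeing the data was leaving out the 5 libraries above 100000 CPM of Gm42418. That gave 1 in mexAM against BALF, 8 in mexAM against PLF, 5 in mexAM against BMDM, 1 in BALF against BMDM and 0 in PLF against BMDM, from 7 libraries with 3 residual degrees of freedom, where calls over all genes fell too, to 1690 of 10789 in BALF against BMDM and 2146 in PLF against BMDM, against 3747 and 3652 of 10011. The mRNA medians were 1.08 and 0.88 there, against 1.00 and 0.84 with all 12 libraries. Apart from fewer libraries or genes, the cause of these changes was not tested. Of 35 calls, 18 held without any 1 library and 29 under all 6 other settings (scaling, filter, tool and block).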
